A study of Homo sapiens with 6 samples.

Results

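Chromosome 10 contributed 20545 of the 597973 exon bins counted in HEK293 cells, an established human embryonic kidney line, of which 5428 bins lay on the short arm (10p) and 15117 on the long arm (10q). Such a bin is the part of a gene that lies between 2 adjacent exon boundaries, and the arms were divided at 39.8 Mb on GRCh38. The bins belonged to 2177 genes, 999 of which had enough counts to be tested. The chromosome was chosen from measured values of the comparison described here, the ratio of MUL1(−/−) to WT cells, so its overall shift is described and not tested.

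RNA was sequenced from 3 libraries of HEK293 WT cells and 3 of HEK293 MUL1(−/−) cells, all grown in DMEM with fetal calf serum, L-glutamine, penicillin and streptomycin and given no other agent. MUL1 encodes an E3 ubiquitin ligase of the mitochondrial outer membrane, and its gene, on chromosome 1, was disrupted in the MUL1(−/−) line by CRISPR-Cas9. The sources used here do not state which clone was sequenced, or whether the libraries of a genotype came from separate cultures. The p-values therefore measure the spread between these libraries, which may be technical. Clonal differences and the loss of MUL1 cannot be told apart in this design.

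Counts summed over all bins were 132849479 to 149317215 in WT and 127466071 to 128125459 in MUL1(−/−) libraries, of which chromosome 10 took 4069615 to 4518777 and 3432546 to 3533928. The MUL1 transcript was at 15.4, 15.2 and 19.0 counts per 1000000 (CPM) in WT and at 18.7, 16.7 and 19.2 CPM in the libraries labelled MUL1(−/−), so its count does not check the labels. Of the markers known in HEK293, VIM was at 594 to 938 CPM, KRT18 at 85.2 to 98.3 CPM and NEFL at 81.7 to 139 CPM. The others were low: NEFM at 1.69 to 1.84 CPM in WT and 3.12 to 3.95 CPM in MUL1(−/−) libraries. PAX2 was at 7.83 to 10.7 CPM in WT and 1.93 to 3.35 CPM in MUL1(−/−) libraries. INS had 0 counts in every library, CD3E at most 1 count, and PTPRC, ALB, MYH6 and GFAP stayed under 1 CPM, whereas the fibroblast marker DCN was at 1.14 to 1.22 CPM in WT and 2.61 to 3.42 CPM in MUL1(−/−) libraries.

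Chromosome 10 carries genes of many pathways. The tip of its short arm holds a cluster of aldo-keto reductases that interconvert steroids and other carbonyl compounds. The long arm holds a cluster of cytochrome P450 enzymes, glycolytic and mitochondrial genes, and, near its end, OAT, which encodes the mitochondrial ornithine aminotransferase, and CYP2E1, which oxidises ethanol and other small molecules. A level summed over bins cannot tell fewer cells expressing a gene from less RNA per cell.

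Among genes that averaged at least 1 CPM, AKR1C2 and AKR1C1 on the short arm and NANOS1 and OAT on the long arm were the furthest above the median of their arm, and DPYSL4 was the furthest below that of the long arm. The 250 bases before their RefSeq starts (GRCh38.p14, 5′ to 3′ on the strand of the gene, CG dinucleotides in capitals) are shown because the aldo-keto reductase pair moved together and because the promoters differ widely in CG content. They lie at chr10:4963165-4963414 (AKR1C1, plus strand), chr10:5003858-5004107 (AKR1C2, minus), chr10:124418924-124419173 (OAT, minus), chr10:119029464-119029713 (NANOS1, plus) and chr10:132186698-132186947 (DPYSL4, plus).

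AKR1C1: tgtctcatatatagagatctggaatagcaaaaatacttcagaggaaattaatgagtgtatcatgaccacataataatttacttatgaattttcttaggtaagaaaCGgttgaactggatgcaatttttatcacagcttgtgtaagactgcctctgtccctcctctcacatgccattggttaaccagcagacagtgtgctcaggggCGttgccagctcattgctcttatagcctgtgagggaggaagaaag
AKR1C2: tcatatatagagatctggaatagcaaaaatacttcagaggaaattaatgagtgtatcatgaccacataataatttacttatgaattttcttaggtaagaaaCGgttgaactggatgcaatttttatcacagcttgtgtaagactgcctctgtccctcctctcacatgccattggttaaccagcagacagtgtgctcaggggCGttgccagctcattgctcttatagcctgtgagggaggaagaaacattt
OAT: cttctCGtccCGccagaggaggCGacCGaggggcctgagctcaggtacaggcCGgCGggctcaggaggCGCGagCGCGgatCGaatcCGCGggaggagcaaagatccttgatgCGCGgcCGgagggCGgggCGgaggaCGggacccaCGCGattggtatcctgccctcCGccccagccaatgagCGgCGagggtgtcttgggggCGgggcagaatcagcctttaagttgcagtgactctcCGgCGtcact
NANOS1: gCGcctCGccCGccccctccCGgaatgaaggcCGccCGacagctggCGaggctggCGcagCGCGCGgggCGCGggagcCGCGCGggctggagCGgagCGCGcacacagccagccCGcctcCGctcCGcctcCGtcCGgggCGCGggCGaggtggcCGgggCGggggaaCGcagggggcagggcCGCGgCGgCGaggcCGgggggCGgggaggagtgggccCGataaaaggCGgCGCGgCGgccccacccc
DPYSL4: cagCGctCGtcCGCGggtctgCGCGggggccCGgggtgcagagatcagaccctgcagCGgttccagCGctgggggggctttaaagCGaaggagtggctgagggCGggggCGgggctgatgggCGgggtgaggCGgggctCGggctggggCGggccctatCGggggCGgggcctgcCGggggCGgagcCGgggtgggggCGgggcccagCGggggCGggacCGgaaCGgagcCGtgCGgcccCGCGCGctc

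The windows of AKR1C1 and AKR1C2 share an identical run of 245 bases and hold 2 CG dinucleotides each, a number reached or exceeded by 85.3% of the 35116 RefSeq promoter windows of this length. OAT held 27 CG dinucleotides, NANOS1 41 and DPYSL4 31, against a median of 11 over all windows and 10 over the 1680 windows of chromosome 10. Only 1.73% of all windows had as many as NANOS1. The motif TGACNNNGC, the core of the antioxidant response element, was searched on both strands and was found in 0 of these 5 windows and in 10.9% of all windows. Of the 999 tested genes, 608 matched a RefSeq entry on chromosome 10 by symbol.

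The shift of chromosome 10 was larger on the long arm than on the short arm, and it did not cover either arm evenly. Over 227 tested genes of 10p the median log2 fold change (MUL1(−/−) over WT) was -0.08 (quartiles -0.33 and 0.16), and over 772 genes of 10q it was -0.36 (quartiles -0.66 and 0.00). Against the WT mean, the 10q median was -0.35, -0.34 and -0.34 in the 3 MUL1(−/−) libraries (SD 0.0091, n = 3), whereas each WT library set against the other WT libraries gave 0.03, -0.01 and 0.00. The 10p median was -0.07, -0.04 and -0.07 in MUL1(−/−) and 0.02, -0.02 and 0.00 in WT libraries. All 3 MUL1(−/−) libraries thus lay below all WT libraries on either arm, by a small margin on 10p, where the median came to 0.01 when no filter on low counts was set and to -0.01 when libraries were scaled by their totals.

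The other autosomes together had a median of 0.00, and the chromosome stood second from the bottom of the 22. Its median over both arms was -0.29, between those of chromosome 20 (-0.35) and chromosome 21 (-0.24). Chromosome 7 followed with -0.22, and chromosomes 13 (0.21), 17 (0.22) and 19 (0.31) were at the other end. The remaining autosomes lay between -0.08 and 0.09.

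The share of all autosomal counts, which scales each library by its own total, was also lower in MUL1(−/−) libraries for both arms. It weights genes by their counts, so its log2 ratio is not the same measure as the median over genes. 10q took 2.43%, 2.46% and 2.48% of the autosomal counts in WT and 2.09%, 2.17% and 2.14% in MUL1(−/−) libraries, a log2 ratio of -0.21. 10p took 0.884%, 0.882% and 0.891% in WT and 0.844%, 0.868% and 0.841% in MUL1(−/−) libraries, a log2 ratio of -0.06. The groups did not overlap for either arm. Exon bins taken one at a time, rather than summed into genes, had a median log2 ratio of -0.39 over 8231 bins of 10q and -0.07 over 2945 bins of 10p with a mean of at least 10 counts.

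Along the chromosome the ratio was uneven. The split points given are the best cuts by a rule that always yields a cut, so they describe the profile and were not tested. Among 620 genes averaging 1 CPM or more, the single split that best divided 10p fell between KIN and ATP5F1C, a subunit of the mitochondrial ATP synthase. The 32 genes from ZMYND11 to KIN (chr10:134465-7787981) had a median of -0.20 and 27 of them were below 0, whereas the 110 genes from ATP5F1C onward had a median of 0.00, with 59 below 0. Across the centromere no step was seen. The last such gene before the arm boundary, ENSG00000276805, was at 3.43, 3.25 and 2.79 CPM in WT and 2.70, 3.57 and 2.48 CPM in MUL1(−/−) libraries (log2 fold change -0.11). The first gene after it, the noncoding LINC00839, was at 1.51, 1.41 and 1.62 CPM in WT and at 2.88, 3.53 and 3.52 CPM in MUL1(−/−) libraries (log2 fold change 1.13), and stood apart from its neighbours.

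On 10q the best single split lay between CSTF2T and PRKG1-AS1, with medians of -0.01 over 50 genes and -0.42 over 428 genes. With 2 splits, a choice made after the profile was seen, 10q fell into an inner segment of 48 genes that ended with ASAH2B, a middle segment of 346 genes from PRKG1, a cGMP-dependent protein kinase, to VAX1, a homeobox gene (chr10:50990891-117138301), and an outer segment of 84 genes from SLC18A2 to CYP2E1 (chr10:117241073-133561220). The medians were -0.01, -0.45 and 0.01. The middle median corresponds to 73.4% of the WT level, and 319 of its 346 genes (92.2%) were below 0. With all tested genes in place of those at 1 CPM or more, the split points moved to DKK1 and PCDH15 and to C10orf88B and C10orf88, and the middle median was -0.42.

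Over all 538 tested genes of the middle segment the median was -0.43 (quartiles -0.69 and -0.21). It was -0.43, -0.42 and -0.46 in the 3 MUL1(−/−) libraries (SD 0.019, n = 3) and 0.03, 0.00 and -0.01 in the WT libraries. In the inner segment the MUL1(−/−) libraries were at -0.02, 0.03 and -0.03, and in the outer segment at -0.03, 0.04 and 0.02, within the range of the WT libraries or close to it. The depth of the middle segment was alike at all levels of expression. Its median was -0.40 over the 180 genes of lowest CPM (up to 0.844 CPM), -0.43 over the next 178 and -0.46 over the 180 of highest CPM (from 19.8 CPM). It was -0.44 on the plus and -0.42 on the minus strand, and -0.43 over protein-coding genes and -0.45 over the others.

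Among genes averaging 1 CPM or more, the longest unbroken run of neighbours below 0 held 64 genes, from DNMBP-AS1 to PDCD11 (chr10:99875577-103446292, median -0.46). Of these, 57 had an adjusted p under 0.05 by edgeR's quasi-likelihood test. At this threshold 18.7% of all tested genes and 56.5% of those of the middle segment were lower. The run was picked as below 0 in the same fit, so its count is largely set by that choice. The next run held 45 genes, from ASCC1 to COMTD1 (chr10:72096032-75236030, median -0.49). The lowest window of 20 genes ran from CHUK-DT to TLX1 (chr10:100229667-101137789, median -0.70) and lay within the longest run. These and the other genes at the ends of runs and windows are named after their values were seen.

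When each autosome was cut into blocks of 10 Mb, 7 of the 14 blocks of chromosome 10 and 20 of the 263 blocks of the other autosomes had a median below -0.3. The 20 blocks lay on 6 chromosomes, with 8 on chromosome 7 and 5 on chromosome 20. The block of chromosome 10 from 60 to 70 Mb had the lowest median of the chromosome (-0.53) and the 4th lowest of all 277 blocks. The outer end of 10q differed in another way. Its blocks from 120 to 130 Mb and from 130 to 140 Mb had the widest spreads of all 277 blocks, with interquartile ranges of 1.41 and 1.01 against a median of 0.35 over all blocks, while their medians were 0.01 and 0.05.

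In the outer segment genes well above and well below 0 lay beside each other in short stretches. The longest run of neighbours above 0 on the whole chromosome was there, 13 genes from LHPP to BCCIP (chr10:124461834-125853695) with a median of 0.57, which was 0.60, 0.55 and 0.58 in the MUL1(−/−) libraries and -0.10 to 0.08 in the WT libraries. EDRF1, a regulator of erythroid genes, rose within it from 53.3, 50.5 and 54.9 CPM to 124, 135 and 131 CPM (log2 fold change 1.30, SE 0.07, adjusted p = 2.953e-09 by edgeR). The DNA repair gene MGMT, which removes alkyl groups from guanine, lay further out and fell from 17.0, 16.2 and 14.4 CPM to 5.26, 5.39 and 5.99 CPM (log2 fold change -1.52, SE 0.10, adjusted p = 4.192e-08). DOCK1, an activator of Rac, fell between these genes from 52.6, 50.9 and 48.4 CPM to 22.8, 22.5 and 24.4 CPM (log2 fold change -1.12, SE 0.07).

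With the thresholds of the study (0.05 on the adjusted p, more than 1 log2 unit in size), edgeR's quasi-likelihood test called 44 genes of chromosome 10 higher and 80 lower in MUL1(−/−) libraries. Over all 25125 tested genes 4.23% were called higher and 3.87% lower, and on the chromosome the shares were 4.40% and 8.01%. On 10p 5 genes were called in each direction, on 10q 39 higher and 75 lower. The middle segment held 13 of the higher and 55 of the lower genes, and 35 of those 55 lay within 1 log2 unit of the median of the segment. The outer segment held 19 higher and 14 lower genes among 138, that is 13.8% and 10.1%.

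At the adjusted p alone, 95 genes of the chromosome were higher and 406 lower, where 18.8% and 18.7% of all tested genes were. In the middle segment 25 of 538 genes were higher and 304 lower (56.5%), and in the outer segment 40 and 42 of 138. All MUL1(−/−) libraries lay below all WT libraries for 462 genes of the chromosome (46.2%, background 24.4%) and above them for 139 genes (13.9%, background 24.1%). Since the chromosome was picked on this contrast, these shares describe it and support nothing further.

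Of the 124 genes past both thresholds, 84 were also more than 1 log2 unit from the median of their own arm, and 56 reached 1 CPM on average with genotypes that did not overlap. Of these 56, the 8 furthest above their arm's median were AKR1C2, AKR1C1, NANOS1, OAT, CYP2E1, PTPN20, SCART1 and EDRF1-AS1. The 8 furthest below were PLXDC2, DPYSL4, HSPA12A-AS1, PRXL2A, KNDC1, PAX2, SEMA4G and HSPA12A. The filter of 1 CPM was on the mean over all libraries. AKR1C2, AKR1C1, CYP2E1 and PTPN20 had a group mean of 1 CPM or more in MUL1(−/−) libraries only. PLXDC2, HSPA12A-AS1 and KNDC1 had it in WT libraries only. Such genes entered the ranking through the group in which they are high. The same bins that make up these genes moved together in most of them, with 27 of 27 bins of OAT higher in all MUL1(−/−) libraries and 22 of 22 bins of DPYSL4 lower. The gene values are sums over these bins, and the genes were chosen for large changes without overlap. The agreement of the bins is thus largely set by the choice and is no separate support.

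**Figure D1:**
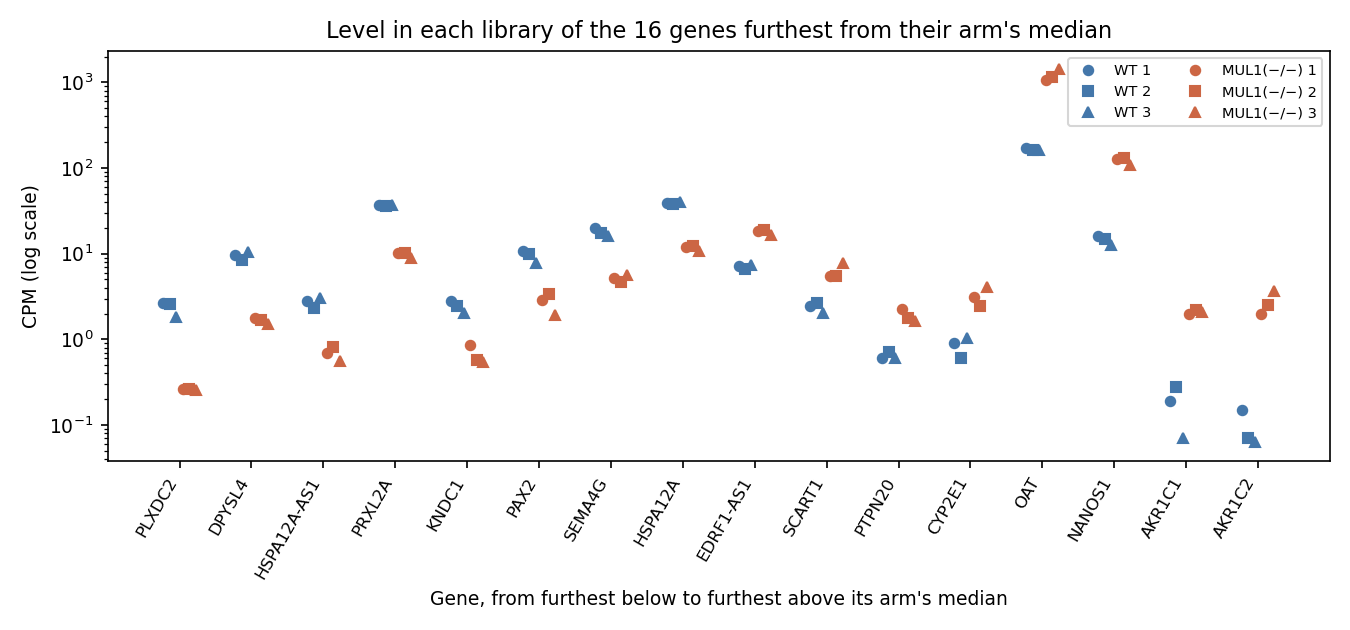
Level in CPM on a log scale (y axis) of each WT and MUL1(−/−) library for the 8 genes furthest above and the 8 furthest below the median of their arm, among those averaging at least 1 CPM (x axis), from PLXDC2, furthest below, to AKR1C2, furthest above. No overlap between the genotypes was a condition of the choice of these genes and is not a result. OAT reaches 1077 to 1416 CPM in the MUL1(−/−) libraries.

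The aldo-keto reductases of 10p lay inside the part of the short arm with the lower median and were the furthest above it. AKR1C2 (chr10:4987400-5018031), which reduces dihydrotestosterone, was at 0.150, 0.0707 and 0.0635 CPM in WT and at 2.00, 2.49 and 3.65 CPM in MUL1(−/−) libraries, or 8 to 19 counts against 253 to 452. The log2 fold change came to 4.84 (SE 0.30, adjusted p = 1.902e-08), which is 5.13 above the median of the chromosome. AKR1C1 (chr10:4963253-4983283), which inactivates progesterone, was at 0.189, 0.276 and 0.0714 CPM in WT and at 1.95, 2.21 and 2.11 CPM in MUL1(−/−) libraries (log2 fold change 3.52, SE 0.28, adjusted p = 2.093e-07). AKR1C3, a 17β-hydroxysteroid dehydrogenase, rose likewise (log2 fold change 3.34, SE 0.33, adjusted p = 2.202e-06). The 3 genes are close paralogs, as their promoters show for AKR1C1 and AKR1C2, so reads may be divided between them and their single values are uncertain. All were under 4 CPM, and AKR1C4 and AKR1E2 had too few counts to be tested.

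PLXDC2 (chr10:19816239-20289856), a transmembrane protein with a plexin-like domain, was the furthest below the median of 10p among genes averaging at least 1 CPM. It was at 2.66, 2.60 and 1.81 CPM in WT and at 0.261, 0.264 and 0.258 CPM in MUL1(−/−) libraries (log2 fold change -3.17, SE 0.20, adjusted p = 2.052e-08), and 5 of its 5 bins with a mean of at least 10 counts were lower in all MUL1(−/−) libraries. IDI1, an enzyme of isoprenoid synthesis, fell from 79.9, 78.1 and 69.7 CPM to 38.6, 43.0 and 27.5 CPM (log2 fold change -1.06, SE 0.12), but by 0.89 without MUL1(−/−) replicate 3. The 3 genes of 10p with the highest mean CPM changed less. The intermediate filament gene VIM, 53.8% of whose counts lay in bins that another gene's exons touch, had a log2 fold change of -0.34, the glycolytic PFKP -0.36 and GDI2, a regulator of Rab proteins, -0.24.

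On 10q OAT (chr10:124397303-124418976) was among the 3 genes with the highest mean CPM. It went from 173, 161 and 164 CPM in WT to 1077, 1163 and 1416 CPM in MUL1(−/−) libraries (log2 fold change 2.87, SE 0.09, adjusted p = 9.448e-12). NANOS1 (chr10:119029716-119033732), an RNA-binding repressor of translation, was at 16.2, 14.9 and 12.5 CPM in WT and at 126, 132 and 107 CPM in MUL1(−/−) libraries (log2 fold change 3.07, SE 0.10, adjusted p = 1.807e-11). CYP2E1 (chr10:133520406-133561220), at the end of the arm, was at 0.913, 0.601 and 1.04 CPM in WT and at 3.15, 2.48 and 4.11 CPM in MUL1(−/−) libraries (log2 fold change 1.93, SE 0.21, adjusted p = 5.277e-06). The co-chaperone BAG3 rose from 28.6, 24.6 and 26.2 CPM to 59.5, 59.5 and 47.0 CPM (log2 fold change 1.06, SE 0.10). EDRF1-AS1 followed EDRF1, with which it overlaps, and 85.1% of its counts lay in shared bins, so that the pair cannot be told apart by these counts.

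Of these genes below the median of 10q, DPYSL4 and KNDC1 lay in the outer segment. DPYSL4 (chr10:132186900-132205776), of the dihydropyrimidinase-like family of neuronal growth proteins, fell from 9.59, 8.50 and 10.4 CPM to 1.76, 1.66 and 1.5 CPM (log2 fold change -2.53, SE 0.12, adjusted p = 1.022e-09). The others lay in the middle segment and fell by more than 1 log2 unit beyond its median. PRXL2A, a peroxiredoxin-like protein, went from 37.4, 35.6 and 37.0 CPM to 10.3, 10.2 and 9.02 CPM (log2 fold change -1.90, SE 0.08, adjusted p = 3.604e-10), 1.45 below the segment. PAX2, a regulator of kidney development and a marker of this line, went from 10.7, 9.84 and 7.83 CPM to 2.89, 3.35 and 1.93 CPM (log2 fold change -1.80, SE 0.17, adjusted p = 1.531e-06). HSPA12A, an atypical member of the heat shock protein family, fell by 1.74 (SE 0.08), although 49.0% of its counts came from bins that it shares, among other genes with HSPA12A-AS1, of whose counts 99.4% are shared.

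A few genes of the middle segment ran against it. At the adjusted p alone 25 of its tested genes were higher in MUL1(−/−) libraries, 11 of them at 1 CPM or more on average. TCF7L2, the transcription factor at the end of WNT signalling, had a mean of 56.8 CPM. It rose from 40.7, 39.6 and 41.3 CPM to 69.3, 67.5 and 82.2 CPM (log2 fold change 0.85, SE 0.08, adjusted p = 1.534e-06), 1.29 above the median of the segment. ZNF503, a transcriptional repressor, rose from 31.8, 29.4 and 34.1 CPM to 44.7, 42.7 and 73.5 CPM (log2 fold change 0.76, SE 0.15, adjusted p = 0.001244), with the third MUL1(−/−) library well above the other two. VWA2 and MYOF, at 0.808 and 1.21 CPM in WT, had log2 fold changes of 1.31 and 1.16.

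The other genes of the chromosome were followed in 11 lists, compiled with earlier results of these data known, of 237 genes, of which 222 were tested. The lists are loose and also hold genes of other functions, such as ASCC1, TAF3 and GDI2. Each count is therefore of the list and not of the class in its name. Among those 23 were higher and 130 lower at an adjusted p under 0.05, with a median of -0.33, against 18.8% and 18.7% of all tested genes. Over all tested genes of the middle segment, where many of the listed genes lie, 4.65% were higher and 56.5% lower. The same shares are the background for each list, but they are over genes of all levels of expression. Of the middle segment, 132 of the 180 genes of lowest CPM and 173 of the 180 of highest CPM were below 0. No background of like expression was made. A list with more lower genes than 56.5% is therefore not shown to differ from its segment. All 3 tested aldo-keto reductases were higher. Of 7 tested cytochrome P450 enzymes, 3 were higher and 0 lower, among them CYP2E1 and, under 0.3 CPM in every library, CYP2C18 of the middle segment (log2 fold change 1.23). CYP26A1, which degrades retinoic acid, was at 7.71 to 8.83 CPM in WT and 6.01 to 7.85 CPM in MUL1(−/−) libraries and did not pass the test.

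Of 19 enzymes of glucose, pentose and amino acid metabolism 2 were higher, OAT and GSTO2, and 13 lower. Hexokinase HK1 fell from 154, 145 and 140 CPM to 107, 105 and 96.0 CPM (log2 fold change -0.51, SE 0.07, adjusted p = 4.463e-05). The phosphoglycerate mutase PGAM1 fell from 280, 258 and 288 CPM to 191, 186 and 197 CPM (log2 fold change -0.53). Both values are close to the median of the middle segment, in which they lie. PAPSS2, which makes the sulfate donor PAPS, fell by 1.01, and ALDH18A1, which starts proline and ornithine synthesis, by 0.21. ASCC1, listed here but known as a subunit of a transcription coactivator, fell by 0.76.

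Of 28 genes for mitochondrial proteins 1 was higher, ECHS1 of fatty acid oxidation (log2 fold change 0.44, SE 0.07, adjusted p = 0.0002489), in the outer segment. The lower genes numbered 19, with 16 of them among the 18 of the middle segment, where 56.5% of all tested genes were lower. MARCHF5, like MUL1 an E3 ubiquitin ligase of the mitochondrial outer membrane, fell from 61.3, 59.9 and 62.4 CPM to 29.4, 31.1 and 27.6 CPM (log2 fold change -1.06, SE 0.07, adjusted p = 5.82e-08), 0.61 below its segment. The outer membrane channel VDAC2 fell from 385, 361 and 350 CPM to 228, 222 and 227 CPM (log2 fold change -0.70). NDUFB8 of complex I fell by 0.49 and COX15, needed for heme A of complex IV, by 0.40. PDSS1 of coenzyme Q synthesis, on 10p, had a log2 fold change of 0.20 and did not pass the test.

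Of 23 lipid and phosphoinositide enzymes 2 were higher and 11 lower. PLPP4, a lipid phosphate phosphatase, fell from 3.71, 3.10 and 3.72 CPM to 1.5, 1.37 and 1.64 CPM (log2 fold change -1.22, SE 0.14, adjusted p = 6.576e-06). The stearoyl-CoA desaturase SCD fell from 211, 207 and 196 CPM to 139, 141 and 79.3 CPM (log2 fold change -0.78, SE 0.15, adjusted p = 0.0008612), with the third MUL1(−/−) library far below the others. ACBD7, on 10p, rose by a log2 fold change of 0.39.

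All 12 cell cycle and DNA repair genes of the list that lie in the middle segment were lower, and MKI67, the proliferation marker in the outer segment, was the only one of 21 higher. CDK1 fell from 261, 253 and 241 CPM to 145, 182 and 171 CPM (log2 fold change -0.60, SE 0.08, adjusted p = 3.646e-05), and the cohesin subunit SMC3 fell by 0.61. MKI67 rose from 216, 219 and 185 CPM to 262, 264 and 275 CPM (log2 fold change 0.37, SE 0.07, adjusted p = 0.001047). The remaining 8 of the 21 passed in neither direction. Of all tested genes of the middle segment 56.5% were lower at this threshold.

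Of 31 genes of growth and stress signalling 2 were higher, TCF7L2 and FGFR2, and 21 lower. The GDNF co-receptor GFRA1 fell from 11.7, 11.8 and 10.1 CPM to 4.06, 4.18 and 3.68 CPM (log2 fold change -1.49, SE 0.11, adjusted p = 8.819e-08). RET, the receptor kinase that GFRA1 serves, lies in the inner segment and fell from 2.94, 2.93 and 1.90 CPM to 1.26, 1.01 and 1.01 CPM (log2 fold change -1.24, SE 0.18, adjusted p = 7.692e-05). FGFR2, a receptor of fibroblast growth factors, was slightly higher (log2 fold change 0.24, SE 0.07, adjusted p = 0.0172).

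Of 30 developmental and chromatin regulators 3 were higher, EMX2, EBF3 and ZNF503, and 18 lower. EBF3 rose by a log2 fold change of 0.73 and EMX2 by 0.68, both in the outer segment. The methylcytosine dioxygenase TET1 fell from 31.2, 33.0 and 32.2 CPM to 19.4, 20.2 and 13.2 CPM (log2 fold change -0.87, SE 0.12, adjusted p = 6.252e-05). Of 24 genes of the cytoskeleton, adhesion and matrix 2 were higher and 15 lower, among them the urokinase PLAU (log2 fold change -1.35, 58.6% of its counts in shared bins), the tetraspanin TSPAN15 (-0.93) and the focal adhesion protein VCL (-0.44). ABLIM1, an actin-binding protein, was 1 of the 2 that rose (0.29).

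The list of protein synthesis, folding and degradation also holds genes of other functions, among them TAF3 and GDI2. Of its 29 genes 4 were higher, all on 10p, and 16 lower. Of the lower genes 15 lay in the middle segment, where 56.5% of all tested genes were lower. RPS24, a protein of the small ribosomal subunit and the gene of 10q with the highest mean CPM, which is not corrected for length, fell from 1763, 1735 and 1842 CPM to 1069.6, 1114 and 919.7 CPM (log2 fold change -0.78, SE 0.07, adjusted p = 1.278e-06). TAF3, a subunit of the general transcription factor TFIID, rose by 0.43 and HSPA14 by 0.35, though 41.7% of the counts of HSPA14 lay in shared bins. Of 14 transporters and channels 1 was higher, the organic anion pump ABCC2 (log2 fold change 0.67), and 7 lower, with KCNMA1, a calcium-activated potassium channel, at -1.05. PSAP, the precursor of the lysosomal saposins and also among the 3 of highest mean CPM on 10q, fell by 0.55.

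How a gene's counts were divided among its bins was compared within the gene, on the same bins whose ratios picked the chromosome. edgeR's test for exon usage, with Simes' p per gene and Benjamini-Hochberg adjustment over 16222 genes, called 75 of 627 genes of chromosome 10 (12.0%), against 11.3% of all genes. The share of chromosome 10 is close to the background. It was 10.1% in the middle segment (35 of 346), 17.2% in the outer segment (15 of 87), 14.8% on 10p (21 of 142) and 7.69% in the inner segment (4 of 52). The call count fell to 36 without WT replicate 2 and to 47 without WT replicate 1.

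The 6 genes with the smallest p were MCMBP, WAC, LARP4B, RRP12, UROS and FAM107B. Their gene totals differed little between the genotypes, with log2 fold changes from -0.25 to 0.09, except UROS at 0.68. Of their 18 leading bins, 3 per gene, 13 took a larger share of the gene in MUL1(−/−) libraries, 14 were among the first 9 bins from the 5′ end and 14 held no coding base in GENCODE 29. Over 11709 genes the most 5′ bin gained slightly in MUL1(−/−) libraries (median log2 ratio of shares 0.04), on chromosome 10 by 0.05, and in its genes with changed usage by 0.13. The part of this general 5′ difference in the single results was not tested.

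The adjusted p-values given below with single bins are those of the whole gene by Simes' method, not of the bin. MCMBP binds the MCM helicase complex. Its bin at chr10:119872755-119872849, in an exon of 1 transcript and with no coding base, took 1.34%, 1.31% and 1.42% of its counts in WT and 2.60%, 2.38% and 2.56% in MUL1(−/−) libraries (adjusted p = 1.721e-13, edgeR). In WAC, a regulator of histone ubiquitination, the bin at chr10:28533506-28533539 went from 0.599%, 0.416% and 0.579% to 1.61%, 1.02% and 1.05% (adjusted p = 1.026e-10). In the RNA-binding LARP4B, the bin at chr10:931501-931624 went from 1.15%, 0.986% and 1.33% to 2.32%, 1.88% and 2.36% (adjusted p = 2.415e-10). The groups did not overlap in any of these bins, which were picked for their small p, so this follows largely from the choice.

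In RRP12, a ribosome assembly factor, the bin at chr10:97418793-97419495 fell from 1.18%, 1.42% and 1.47% to 0.591%, 0.658% and 0.575% (adjusted p = 1.142e-08). It holds no coding base and touches an exon of another gene. In UROS, an enzyme of heme synthesis (adjusted p = 1.296e-08), the bin with the smallest p was at chr10:125802057-125803024. It fell from 1.76%, 1.99% and 2.81% to 1.12%, 1.03% and 1.03%. The last bin of UROS, chr10:125784980-125785260, rose from 0.0601%, 0.122% and 0.110% to 0.402%, 0.341% and 0.415%, or from 4 to 9 counts to 33 to 48 counts. In FAM107B the bin at chr10:14604296-14604389 went from 0.597%, 0.494% and 0.691% to 1.97%, 1.28% and 1.13% (adjusted p = 5.672e-08).

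**Figure D2:**
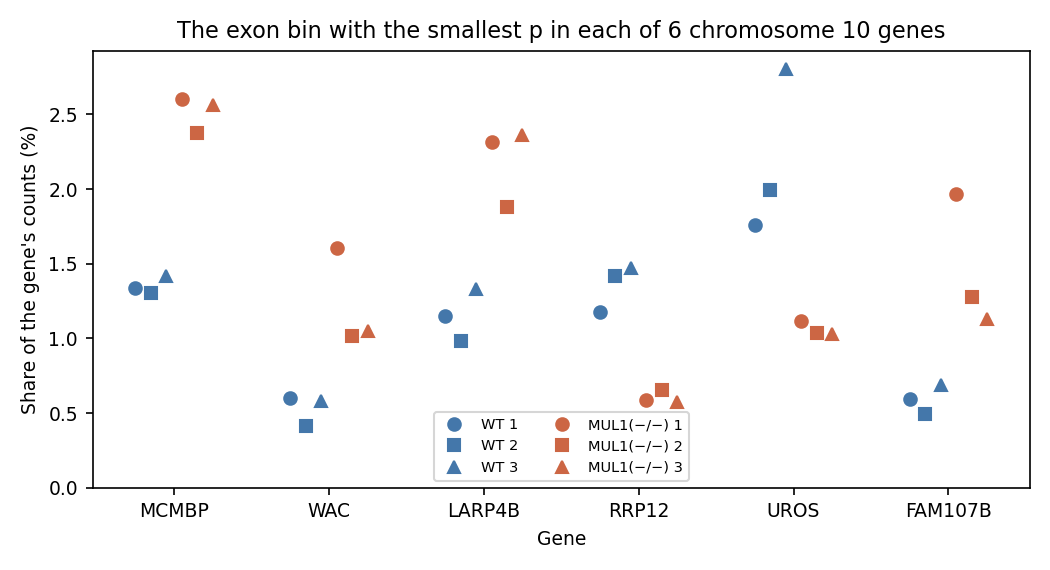
Share of the gene's counts in percent (y axis) that fell in the exon bin with the smallest p, per WT and MUL1(−/−) library (points), in 6 chromosome 10 genes (x axis). The WT and MUL1(−/−) libraries do not overlap in any of the 6, which follows largely from the choice of genes and bins by smallest p. The bin shown took a larger share in MUL1(−/−) libraries in MCMBP, WAC, LARP4B and FAM107B and a smaller one in RRP12 and UROS.

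SEMA4G, a semaphorin among the genes furthest below the 10q median, changed in its composition too (adjusted p = 1.166e-07). The bin at chr10:100972540-100972711 had 69, 68 and 55 counts in WT and 0, 3 and 1 in MUL1(−/−) libraries, and the next, chr10:100972712-100972834, had 62, 45 and 37 and 1, 0 and 0. The coding bin at chr10:100983717-100983808, which another gene's exon touches, had 135, 131 and 107 counts in WT and 89, 79 and 82 in MUL1(−/−) libraries and rose from 5.38%, 5.26% and 5.22% to 13.6%, 13.4% and 11.9% of the gene. The log2 fold change of -1.80 for the sum over bins (19.8, 17.6 and 16.3 CPM against 5.16, 4.71 and 5.58 CPM) thus joins bins that were nearly lost with bins, some shared, that fell less. By the most counted bin alone it was -0.97.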

How the data were processed

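RNA from HEK293 WT and MUL1(−/−) cells (3 libraries each) was sequenced after mRNA library preparation (SMARTER kit). The authors deposited raw counts per exon bin, without normalization. Per the submitters' processing notes, reads were trimmed with Trimmomatic 0.36 and aligned with STAR 2.5.2b to GRCh38, and the counting program is not given in the sources used here. A read may be counted in every bin it touches, which was not checked, so sums over bins may exceed the number of reads. Strand is not stated, so overlapping or antisense genes cannot be told apart.

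Bins were summed per gene, bins of joined identifiers being assigned by GENCODE 29 exons, and 435 bins of chromosome 10 (1.88% of its counts) that fitted several genes were left out. The planned counts per gene were thus made from bins. Genes were fitted across the whole table with edgeR 4.0.16 in R 4.3.3 (TMM, filterByExpr, quasi-likelihood test, Benjamini-Hochberg adjustment over 25125 genes), and exon usage with diffSpliceDGE over 313115 bins. CPM uses TMM-scaled totals. Per-library medians are of log2 CPM, to which a prior count of 2 was added. Error is given as SD over libraries or SE of the fit. Both tests were tested on simulated data. Alternatives used DESeq2 1.42.0, and tables and figures Python 3.11.15, numpy 2.4.6, pandas 2.3.3 and matplotlib 3.10.9.

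The chromosome, gene lists and tests were chosen with earlier results of these data known. Named genes were MUL1, CYP2E1, AKR1C1, AKR1C3, PLPP4, the 8 called genes furthest above and 8 furthest below their arm's median (mean of at least 1 CPM, no overlap), the 3 of highest mean CPM per arm, those beside the arm boundary and split points, the 2 highest and 2 lowest per list, and the 6 with the smallest p for exon usage. Genes outside this rule were named after their values were seen. Some results that this rule or the lists cover are not reported here.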

Additional observations from a re-analysis of the deposited data

How the results depend on the processing

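The medians of 10q and of its middle segment were below 0 under every alternative run, and that of 10p was not. With libraries scaled by their totals the medians of 10p, 10q and the middle segment were -0.00562, -0.29 and -0.36, and with no filter on low counts 0.00599, -0.29 and -0.38. With the most counted bin of each gene they were -0.0573, -0.35 and -0.41. The 10p median was -0.0535 over genes averaging 1 CPM or more and -0.0503 over protein-coding genes, and the 10q median -0.39 over single bins. Leaving out 1 replicate at a time gave -0.0798 to -0.0579 for 10p, -0.37 to -0.35 for 10q and -0.46 to -0.42 for the middle segment, which was defined after the data were seen. Genes called higher and lower numbered 16 and 38 among genes averaging 1 CPM or more (fewer genes tested) and 95 and 406 at the adjusted p alone, and 40 were lower when the median of the arm was subtracted. The lowest window was at -0.95 with 10 genes and -0.52 with 40. Genes with changed exon usage ranged from 36 to 78 over the left-out replicates, lowest without WT replicate 2. The gene-level F test called 97, of which 64 were among the 75. Same-numbered libraries deviated from their group means with correlations of -0.08, 0.16 and 0.10 over 15858 genes, so the labels share only a number. With the replicate block the medians were -0.07, -0.36 and -0.43, and 41 genes were called higher, 76 lower and 78 changed in exon usage. Of 857 refits of 66 named genes, 12 lost and 2 gained a call and 0 turned direction. Those lost were of IDI1, KCNMA1, PAPSS2, MARCHF5 and SEMA4G. Counting depth limits genes at or under 3 counts in a library, and such limits cover counting error only.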
